A study of Mus musculus with 9 samples.

Results

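The 9 transcription factors by which retinal ganglion cells (RGCs), the output neurons of the retina, are commonly recognised and sorted into subtypes were examined in purified mouse RGCs after intraocular pressure (IOP) elevation. They were taken by gene symbol, as Pou4f1, Pou4f2 and Pou4f3 of the POU class, Isl1 and Isl2 of the LIM-homeodomain class, the T-box factors Eomes and Tbr1, and the helix-loop-helix factors Ebf1 and Ebf3. All 9 were found among the 23997 gene symbols in the data, and all 9 were among the 13043 genes that were expressed highly enough to be tested. Isl2 was 2.49 times as abundant in Moderate IOP as in Control, a call that was lost without Control replicate 1 or Control replicate 2. Pou4f1 was higher in Moderate IOP than in Mild IOP, but relative to 12 RGC marker genes of the same library these groups overlapped. No member was called between Mild IOP and Control.

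RGC identity is laid down in the embryonic retina by a hierarchy of transcription factors. Pou4f2 and Isl1 start the RGC programme in newborn RGCs, and Pou4f1, Pou4f3, Isl2, Eomes, Tbr1 and the Ebf factors act downstream of them, each being kept in a part of the adult RGCs. The Pou4f genes, also known as the Brn3 genes, control axon growth, dendrite shape and survival, and immunostaining for their proteins is a standard way of counting RGCs in glaucoma models.

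The mice were C57BL/6J, 6 weeks old when IOP elevation began and 8 weeks old at RGC collection. Control eyes received saline and the Mild IOP and Moderate IOP eyes received microbeads, all into the anterior chamber. IOP was followed for 2 weeks. The bead-injected eyes were then assigned to a group by their IOP, those with the larger increase to Moderate IOP. RGCs were isolated by immunopanning, with 3 steps that remove other cells and a last step that binds Thy1.2. The RNA of each group was combined and then divided into 3 technical replicates, so that every SD, SE and p-value below covers the spread between libraries of a single pool and not the spread between animals. By the methods of the study, fewer retinas were pooled for Moderate IOP than for either other group. A difference between groups is a difference between 3 pools. Fewer RGCs of a type and less RNA per RGC cannot be told apart in such a difference.

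Expression was given as FPKM (fragments per kilobase of transcript, relative to the mapped fragments of the library), which was scaled between libraries by median-of-ratios factors. A log2 fold-change is a difference in mean log2(scaled FPKM + 1), which understates the change of genes with low values, and was tested with limma. Genes were called at a false discovery rate (FDR) below 0.1, the FDR threshold of the study. Its further fold-change criterion of 1.5 for up- and downregulated genes was not applied. The depth derived from the confidence intervals of the FPKM was between 4810000 and 8680000 fragments per library, and a library held between 14182 and 14914 genes with an FPKM over 0. A list of 12 RGC marker genes that includes Thy1 is called pan-RGC below, and its expression in each RGC type and in other cells was not tested. The geometric mean of these genes lay between 109.9 and 118 scaled FPKM in Control, between 88.3 and 107 in Mild IOP and between 158 and 167 in Moderate IOP. They were thus together most abundant in the Moderate IOP pool, and all 12 were tested in all pools. Lens transcripts were found mainly in Control. There 9 lens genes summed to between 308 and 371 scaled FPKM, against at most 5.71 in the other libraries. The study describes the crystallins among them as present in RGCs and downregulated at both IOP levels. It also reports a decrease of some of them by qPCR. Of the sex-linked genes, Ddx3y on the Y chromosome lay between 8.34 and 9.43 in Mild IOP, between 1.22 and 2.88 in Control and at 0.603 or less in Moderate IOP, and Xist between 1.28 and 2.01, between 2.81 and 7.29, and between 9.56 and 11.2 in the same order. The pools therefore differed in sex-linked transcripts, and the part of the lens transcripts and of sex in the differences below was not tested.

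Between Mild IOP and Control, 0 of 9 members were called with limma, where 0.399% of all tested genes were called, and 1 member, Eomes, had an unadjusted p below 0.05, where 10.2% of all tested genes did. Between Moderate IOP and Control, 1 of 9 members was called, against 1.84% of all tested genes, and this was Isl2. Between Moderate IOP and Mild IOP, 2 of 9 members were called, Pou4f1 and Isl2, against 10.2% of all tested genes. All 3 calls were toward higher expression in Moderate IOP, a direction in which 0.951% of all tested genes were called against Control and 7.03% against Mild IOP. In this last comparison the balance of all calls depended on the scaling, with 917 genes higher and 407 lower after median-of-ratios scaling and 709 higher and 690 lower after upper-quartile scaling. The median log2 fold-change of the members was 0.15, 0.29 and 0.07 in the 3 comparisons in the order given, beside medians of 0.0062, 0.0040 and -0.016 over all tested genes. The comparisons of Mild IOP and Moderate IOP with Control share the Control libraries, and are given side by side only.

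**Figure D1:**
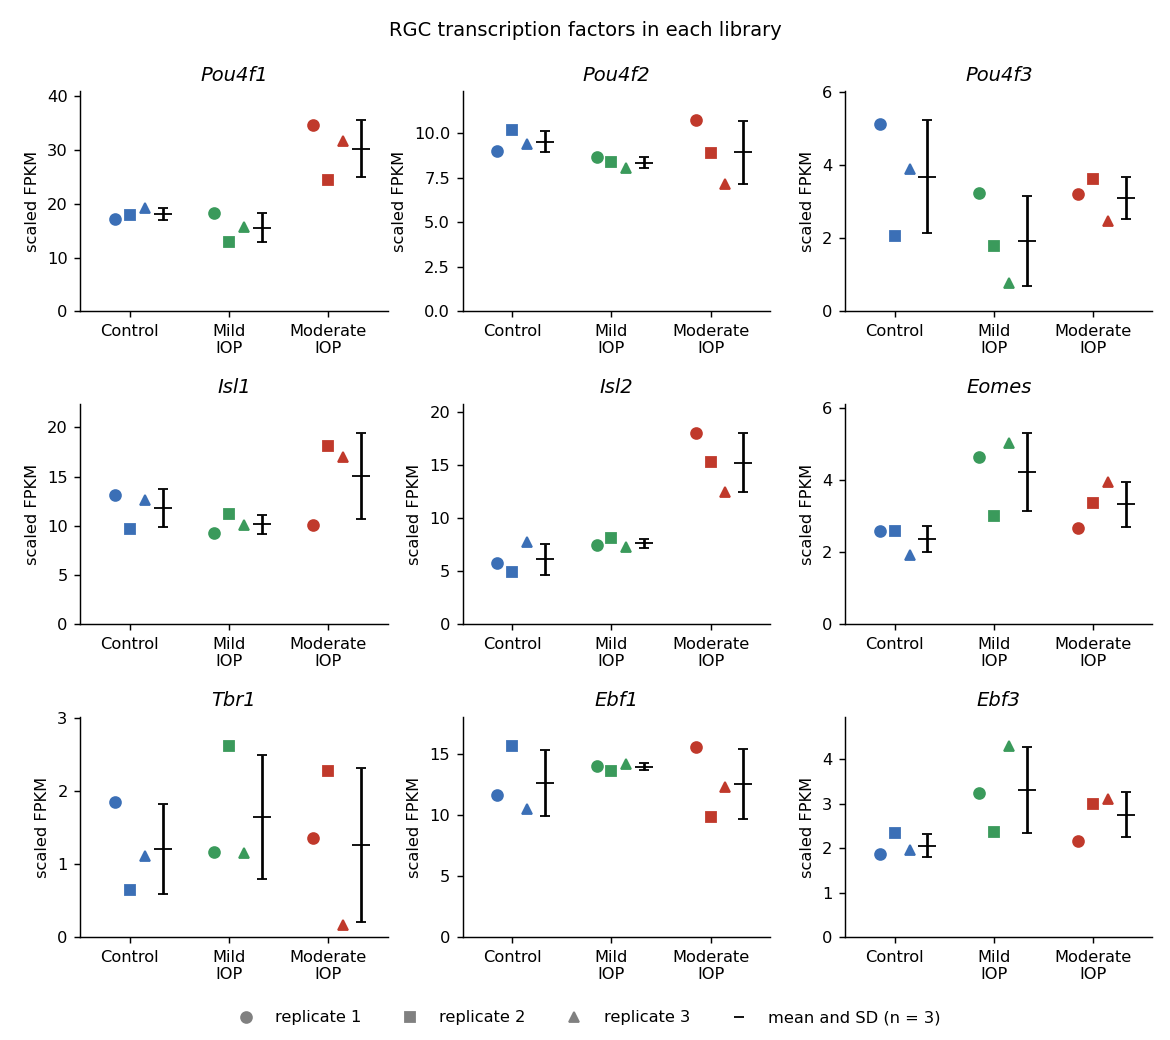
Scaled FPKM of the 9 transcription factors in each of the 9 libraries, on a separate vertical axis from 0 for each gene. Circles, squares and triangles are replicates 1, 2 and 3, and the black bars are the mean and SD of the 3 replicates of a group. The Moderate IOP replicates of Pou4f1 and Isl2 lie above all other libraries, and for the other members no comparison was called.

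Pou4f1 (Brn3a, chr14:104462325-104467999 on mm10), which in the adult retina is kept in a large share of RGCs and is the usual marker for counting them, was the most abundant member. Its scaled FPKM was 17.2, 17.9 and 19.2 in the Control replicates, 18.3, 12.8 and 15.7 in those of Mild IOP and 34.7, 24.4 and 31.8 in those of Moderate IOP. Control and Mild IOP overlapped, and each Moderate IOP replicate was above every other library. The group means were 18.1 ± 1.05 in Control as against 15.6 ± 2.73 in Mild IOP and 30.3 ± 5.29 in Moderate IOP (SD, n = 3, as for all group means). Pou4f1 was higher in Moderate IOP than in Mild IOP by 0.92 on the log2 scale (SE = 0.18, FDR = 0.017, limma). Against Control its difference was 0.70 (SE = 0.18, FDR = 0.11, limma) and missed the threshold, although its unadjusted p was 0.0025. With only genes of at least 5 mean scaled FPKM in the test the same difference had an FDR of 0.087. No other setting tried called it, with an FDR between 0.108 and 0.167. With a library left out the FDR was between 0.105 and 0.273. Mild IOP and Control differed by -0.22 (SE = 0.18, FDR = 0.76, limma).

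Pou4f2 (Brn3b, chr8:78433009-78436652), the first of the Pou4f genes to be expressed in newborn RGCs and needed for their survival, was the next most abundant of the family. It measured 8.98, 10.2 and 9.40 in Control, 8.63, 8.35 and 8.01 in Mild IOP and 10.7, 8.86 and 7.16 in Moderate IOP. The Mild IOP replicates all lay below the Control replicates, and the Moderate IOP replicates spread across both groups. Against Control the log2 difference of Mild IOP was -0.17 (FDR = 0.83) and that of Moderate IOP -0.10 (FDR = 0.84), with an SE of 0.19 in both, and 0.07 between Moderate IOP and Mild IOP (FDR = 0.87).

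Pou4f3 (Brn3c, chr18:42394597-42396093), which is kept in a few RGC types and is also essential in auditory hair cells, was the least abundant Pou4f gene. Its values were 5.12, 2.05 and 3.89 in Control, 3.23, 1.79 and 0.770 in Mild IOP and 3.20, 3.61 and 2.46 in Moderate IOP. All 3 groups overlapped. The lowest value, in Mild IOP replicate 3, rested on only 4.0 derived fragments, and the highest, in Control replicate 1, on 34.7. The difference of -0.71 (SE = 0.36) between Mild IOP and Control had an FDR of 0.55, and the difference of -0.15 between Moderate IOP and Control had an FDR of 0.89, and that of 0.56 between Moderate IOP and Mild IOP an FDR of 0.40.

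Isl2 (chr9:55541149-55546178), a LIM-homeodomain factor known from RGCs with crossed projections, showed the largest difference from Control among the members. Its scaled FPKM was 5.76, 4.89 and 7.72 in Control, 7.48, 8.13 and 7.32 in Mild IOP and 18.01, 15.3 and 12.4 in Moderate IOP. Every Moderate IOP replicate was above every Control and Mild IOP replicate, whereas Control and Mild IOP overlapped. The means were 6.12 ± 1.45, 7.64 ± 0.427 and 15.2 ± 2.79, on 66.1 to 226 derived fragments per library. Isl2 was higher in Moderate IOP than in Control by 1.19 (SE = 0.21, FDR = 0.031, limma) and than in Mild IOP by 0.90 (SE = 0.21, FDR = 0.033, limma), and the 0.30 between Mild IOP and Control was not called (FDR = 0.70). The call against Control was lost without Control replicate 1 (1.17, FDR = 0.114) or Control replicate 2 (1.07, FDR = 0.103), with a similar difference each time. An antisense gene, Gm17226, is annotated across Isl2 in GENCODE M21, and since the library kit does not mark strand its reads cannot be told apart from those of Isl2.

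Isl1 (chr13:116298270-116309688), the partner of Pou4f2 in starting the RGC programme, is also expressed in bipolar cells and starburst amacrine cells. It measured 13.2, 9.63 and 12.6 in Control, 9.26, 11.2 and 10.04 in Mild IOP and 10.04, 18.1 and 17.0 in Moderate IOP. Moderate IOP replicates 2 and 3 were above all other libraries, and replicate 1 lay within the range of Mild IOP. The deposited confidence interval of Moderate IOP replicate 1, from 8.09 to 11.7 FPKM, did not reach that of replicate 2, from 16.3 to 19.9 FPKM, although both were made from the same pooled RNA. No comparison of Isl1 was called, with differences of -0.19 (FDR = 0.85) and 0.30 (FDR = 0.57) from Control in Mild IOP and Moderate IOP and 0.49 (SE = 0.23, FDR = 0.25) between them, but without Moderate IOP replicate 1 the last was 0.74 (FDR = 0.078). Starburst markers were low, with 6 genes summing to at most 2.57 scaled FPKM in any library and Fezf1 at 0. The 9 genes of the bipolar list, Isl1 among them, summed to between 74.5 and 93.2 in Control, between 68.8 and 81.3 in Mild IOP and between 101.5 and 122 in Moderate IOP, with Vsx1 at 0. The most abundant gene of the list, Pcp2, averaged 47.1 in Control as against 32.7 in Mild IOP and 65.9 in Moderate IOP. Of the 8 tested bipolar genes, Pcp2 alone was called between Moderate IOP and Mild IOP, at 1.03 (FDR = 0.028), and the median log2 fold-change of the list was -0.087. The part of bipolar transcripts in the Isl1 values was not tested.

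**Figure D2:**
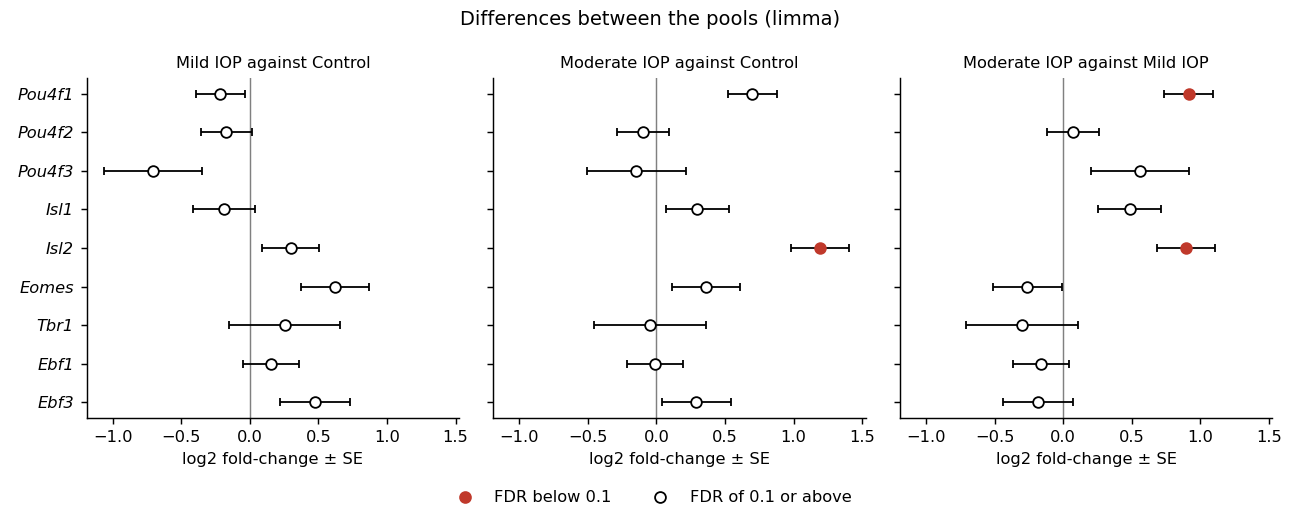
Log2 fold-change of each transcription factor (horizontal axis, with its SE) in the 3 comparisons between pools, from limma over 9 libraries. Filled red points have an FDR below 0.1: Isl2 at 1.19 in Moderate IOP against Control, and Pou4f1 at 0.92 and Isl2 at 0.90 in Moderate IOP against Mild IOP. No point is filled for Mild IOP against Control.

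The sequence just upstream of the transcription start was compared for Pou4f1 and Isl2, the 2 genes called higher in Moderate IOP than in Mild IOP. Their paralogs Pou4f2 and Isl1, which were not called, were set beside them. The 249 bases just upstream of the RefSeq start on GRCm38.p6 (the mm10 build) are printed on the strand of the gene, with CG dinucleotides in capitals. The windows are chr14:104468001-104468249 (minus strand) for Pou4f1, chr9:55540899-55541147 (plus strand) for Isl2, chr8:78436649-78436897 (minus strand) for Pou4f2 and chr13:116309690-116309938 (minus strand) for Isl1.
Pou4f1: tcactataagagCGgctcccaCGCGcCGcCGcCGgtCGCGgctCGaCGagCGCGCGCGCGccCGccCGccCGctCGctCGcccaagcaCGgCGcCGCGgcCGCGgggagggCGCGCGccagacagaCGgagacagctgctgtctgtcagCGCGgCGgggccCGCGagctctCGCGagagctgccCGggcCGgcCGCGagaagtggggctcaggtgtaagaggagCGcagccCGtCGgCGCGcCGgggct
Isl2: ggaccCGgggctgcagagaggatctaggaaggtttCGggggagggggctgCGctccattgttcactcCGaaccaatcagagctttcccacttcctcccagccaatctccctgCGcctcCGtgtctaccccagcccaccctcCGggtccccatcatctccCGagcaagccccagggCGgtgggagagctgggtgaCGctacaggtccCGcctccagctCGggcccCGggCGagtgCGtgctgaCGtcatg
Pou4f2: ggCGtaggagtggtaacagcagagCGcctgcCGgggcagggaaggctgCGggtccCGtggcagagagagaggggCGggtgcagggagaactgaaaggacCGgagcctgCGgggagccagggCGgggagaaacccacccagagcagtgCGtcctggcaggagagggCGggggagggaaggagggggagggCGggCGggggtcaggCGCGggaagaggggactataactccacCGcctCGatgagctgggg
Isl1: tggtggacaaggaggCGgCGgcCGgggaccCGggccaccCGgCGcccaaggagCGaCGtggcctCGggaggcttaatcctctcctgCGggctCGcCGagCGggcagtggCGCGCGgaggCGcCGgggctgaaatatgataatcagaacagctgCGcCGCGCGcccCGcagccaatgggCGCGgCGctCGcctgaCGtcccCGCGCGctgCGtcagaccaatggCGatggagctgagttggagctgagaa
The Pou4f1 window held 47 CG dinucleotides, a number reached by 0.247% of the 32851 mouse promoters of this length, whose median was 6. The Isl1 window held 33, reached by 3.99% of promoters. Pou4f2 held 17 (reached by 23.4%) and Isl2 held 16 (reached by 25.4%). The 2 genes that were higher in Moderate IOP than in Mild IOP thus held the highest and the lowest number of the 4. The promoters of 8 of 9 members were in the RefSeq table. Each was searched on both strands for ATAATTAA (a POU4F motif, in 1.09% of all promoters), CTAATGG (an ISL motif, 1.72%), CCCNNGGGA (an EBF motif, 5.58%) and AGGTGTGA (a T-box motif, 1.12%), which do not overlap each other. The EBF string was in 1 of the 8 windows, that of Ebf3. The other strings were in none of them, which says only that these letters are not there.

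Eomes (Tbr2, chr9:118478189-118486132), which is kept in the adult in RGCs that express melanopsin, had the largest positive log2 fold-change of the members in Mild IOP. It measured 2.57, 2.58 and 1.93 in Control, 4.65, 3.00 and 5.04 in Mild IOP and 2.68, 3.37 and 3.94 in Moderate IOP. All Mild IOP and all Moderate IOP replicates were above all Control replicates, narrowly so for Moderate IOP replicate 1, and the IOP groups overlapped each other. The difference from Control was 0.62 in Mild IOP (SE = 0.25, FDR = 0.41, limma) and 0.36 in Moderate IOP (SE = 0.25, FDR = 0.52, limma), and neither was called. Opn4, which encodes melanopsin, was at 25.1 ± 1.93 in Control as against 24.3 ± 3.95 in Mild IOP and 22.6 ± 1.65 in Moderate IOP, and was not called in any comparison. An antisense gene, Gm33460, is annotated across Eomes.

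Tbr1 (chr2:61804453-61814113), which specifies RGC types with dendrites in the OFF layer, including the J-RGCs that express Jam2, was the least abundant member. Its values were 1.85, 0.638 and 1.11 in Control, 1.16, 2.62 and 1.14 in Mild IOP and 1.35, 2.27 and 0.167 in Moderate IOP. The SD within each pool exceeded every difference between the group means. In Moderate IOP, the interval of replicate 3, from 0 to 0.329 FPKM on 4.0 derived fragments, lay far below that of replicate 2, from 1.76 to 2.79 FPKM. The differences from Control were 0.25 in Mild IOP (SE = 0.41, FDR = 0.90) and -0.05 in Moderate IOP (FDR = 0.97). Jam2 itself had means of 5.17 ± 0.502, 8.59 ± 0.954 and 7.14 ± 0.624, with an FDR of 0.24 for Mild IOP and 0.34 for Moderate IOP against Control.

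Ebf1 (chr11:44618100-45008096), which with the other Ebf genes acts below Pou4f2 in the developing retina, came next to Pou4f1 in mean level in Control and Mild IOP. It measured 11.6, 15.6 and 10.5 in Control, 14.0, 13.6 and 14.2 in Mild IOP and 15.5, 9.82 and 12.2 in Moderate IOP. The groups overlapped throughout, and the means of 12.6 ± 2.70, 13.9 ± 0.300 and 12.5 ± 2.86 were within an SD of each other in Control and Moderate IOP. Against Control the log2 difference of Mild IOP was 0.15 (FDR = 0.86) and that of Moderate IOP -0.01 (FDR = 0.99), with an SE of 0.20.

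Ebf3 (chr7:137193671-137314445), a close relative of Ebf1, was less abundant, at 1.87, 2.35 and 1.95 in Control, 3.25, 2.37 and 4.30 in Mild IOP and 2.17, 2.99 and 3.10 in Moderate IOP. The Mild IOP replicates were all above the Control replicates, by a narrow margin for replicate 2, and the Moderate IOP replicates overlapped both groups. The difference from Control was 0.47 in Mild IOP (SE = 0.25, FDR = 0.58) and 0.29 in Moderate IOP (FDR = 0.63). Between Moderate IOP and Mild IOP, Eomes differed by -0.26, Tbr1 by -0.30, Ebf1 by -0.16 and Ebf3 by -0.18, with an FDR of 0.59 or more in each. Antisense genes are annotated across Ebf1 (Gm12158) and Ebf3 (Gm45278 and Gm10578), with Gm10578 listed at 0 in all libraries.

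Counted over the members, groups that did not overlap were seen 3 times in Mild IOP against Control, with Eomes and Ebf3 higher (7.94% of all tested genes) and Pou4f2 lower (9.13% of all tested genes). They were seen 3 times in Moderate IOP against Control, for Pou4f1, Isl2 and Eomes, all higher, where 9.95% of all tested genes were higher in this way. They were seen 2 times in Moderate IOP against Mild IOP, for Pou4f1 and Isl2, both higher, against 14.5% of all tested genes. The replicates of a pool varied more than their fragment counts alone would give. Over the 27 pairs of a member and a group, the SD between replicates was between 0.453 and 4.88 times the counting error, with a median of 2.22, and in 15 pairs the deposited intervals of the lowest and highest replicate did not overlap.

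The order of the members was compared per transcript length, within each group. In Control, Pou4f1 was above all other members in every replicate, followed in order of their means by Ebf1, Isl1, Pou4f2, Isl2, Pou4f3, Eomes, Ebf3 and Tbr1. Tbr1 was below all other members. Among these, Ebf1 overlapped with Isl1, Isl1 with Pou4f2, Isl2 with Pou4f3, Pou4f3 with Eomes and Ebf3, and Eomes with Ebf3. In Moderate IOP, Isl2 overlapped with Isl1 and Ebf1 and no longer with Pou4f3, and lay above Pou4f2 in every replicate. Within single libraries Isl2 was the 5th most abundant member in all Control and Mild IOP replicates and the 2nd, 3rd and 3rd in the Moderate IOP replicates. Among all tested genes its mean stood at the percentile 42.4 in Control as against 47.5 in Mild IOP and 62.9 in Moderate IOP, and that of Pou4f1 at 66.8, 63.7 and 76.6. The percentile of Pou4f2 was 52.8, 49.5 and 51.2 in the same order.

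To compare paralogs without any scaling between libraries, each member was expressed as its share of the summed FPKM of its family. Pou4f1 made up 54.9%, 59.4% and 59.1% of the Pou4f family in the Control replicates, 60.7%, 55.8% and 64.1% in Mild IOP and 71.4%, 66.2% and 76.8% in Moderate IOP. The Moderate IOP replicates did not overlap with either other group. The mean share was 13.6 percentage points higher than in Control and 11.3 higher than in Mild IOP, with p = 0.1 in each (exact two-sided permutation test), which is the smallest p that 3 against 3 libraries can give and is above 0.05. The share of Pou4f2 averaged 30.5% ± 2.85 in Control as against 32.6% ± 3.88 in Mild IOP and 21.1% ± 3.45 in Moderate IOP, and that of Pou4f3 11.7%, 7.22% and 7.44%.

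Isl2 made up 30.4%, 33.6% and 38.0% of the Isl family in Control, 44.7%, 42.1% and 42.2% in Mild IOP and 64.2%, 45.8% and 42.2% in Moderate IOP. Both IOP groups lay above Control, and they overlapped each other. The mean share was above that of Control by 8.93 percentage points in Mild IOP and 16.7 points in Moderate IOP (exact two-sided permutation test, p = 0.1 in each), the latter by 9.94 points without Moderate IOP replicate 1, the library with low Isl1. Moderate IOP and Mild IOP differed by 7.75 points (exact permutation p = 0.2), and without the same library by 1.01. The share of Eomes in the sum of Eomes and Tbr1 averaged 67.2%, 71.7% and 74.1% in Control, Mild IOP and Moderate IOP, and that of Ebf1 in the sum of Ebf1 and Ebf3 85.8%, 81.0% and 81.4%, with exact permutation p between 0.2 and 1 over these 6 comparisons. The transcripts of the paralogs shared exact runs of at most 71 bases (Pou4f1 and Pou4f2), 23 bases (Isl1 and Isl2), 35 bases (Ebf1 and Ebf3) and 15 bases (Eomes and Tbr1), all shorter than a read of 100 bases. Runs with mismatches were not sought, and whether reads were assigned to the wrong paralog was not tested.

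**Figure D3:**
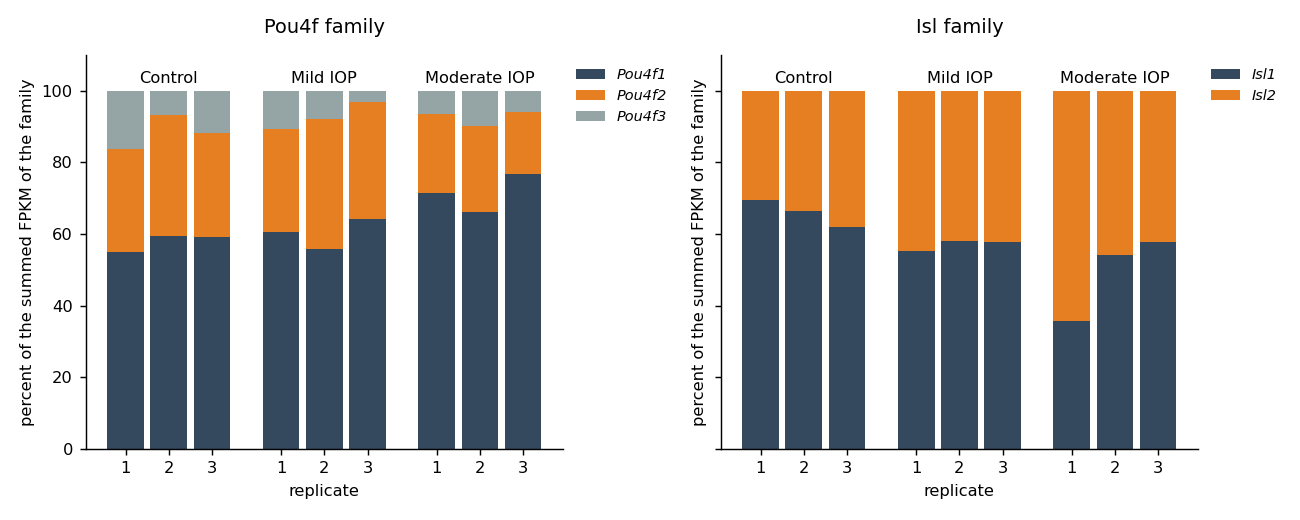
Share of each paralog in the summed FPKM of its family, in percent, for the Pou4f family (left) and the Isl family (right), with a stacked bar for each replicate of the 3 groups. The Pou4f1 share is between 66.2% and 76.8% in Moderate IOP and at most 64.1% elsewhere, and the Isl2 share is at most 38.0% in Control and at least 42.1% in the IOP groups.

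Since pan-RGC genes were most abundant in the Moderate IOP pool, each member was also expressed relative to the geometric mean of the 12 pan-RGC genes in the same library. Because the pan-RGC mean differed between the pools, a gene with the same scaled FPKM in all of them comes out lower in Moderate IOP on this scale. Over 12114 genes above 0 in every library, the median difference on this log2 scale was 0.19 in Mild IOP against Control, -0.52 in Moderate IOP against Control and -0.73 in Moderate IOP against Mild IOP. Pou4f1 differed between Moderate IOP and Control by 0.21 (exact permutation p = 0.3) and between Moderate IOP and Mild IOP by 0.26 (exact permutation p = 0.2), and the groups overlapped. With the median of the pan-RGC list in place of the geometric mean, these differences were 0.0041 and 0.034. Pou4f2 lay between -3.61 and -3.54 in Control, between -3.74 and -3.40 in Mild IOP and between -4.48 and -3.96 in Moderate IOP. The relative difference of Moderate IOP was -0.63 from Control and -0.62 from Mild IOP with no overlap, near those medians, and 40.5% and 53.7% of the tested genes were likewise lower in every Moderate IOP replicate. The log2 fold-changes of Pou4f2 itself were -0.10 and 0.07.

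Isl2 remained above Control in all Moderate IOP replicates when expressed relative to the pan-RGC genes, at -3.21, -3.37 and -3.69 against -4.25, -4.60 and -3.85 in Control. This difference was 0.81 (exact permutation p = 0.1, the smallest possible), where 1.51% of the tested genes were higher without overlap, and those between Mild IOP and Control, 0.53, and between Moderate IOP and Mild IOP, 0.28, had an exact permutation p of 0.2 with overlapping groups. With the median of the pan-RGC list instead, the Isl2 differences of Moderate IOP were 0.60 from Control and 0.056 from Mild IOP. Isl1 overlapped in all comparisons, with differences between -0.20 and -0.02.

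Eomes, Ebf1 and Ebf3 were higher relative to the pan-RGC genes in every Mild IOP replicate than in every Control replicate, by 1.00, 0.35 and 0.84, as were 14.8% of the tested genes. Without the pan-RGC genes, their log2 fold-changes were 0.62, 0.15 and 0.47, and none was called. These fold-changes add 1 to each scaled FPKM, which the relative values do not, so the 2 scales differ for low genes in this too. The ratios of mean scaled FPKM were 1.79, 1.11 and 1.61. In Moderate IOP against Mild IOP the relative differences were -1.03, -0.88 and -0.94 without overlap, beside log2 fold-changes of -0.26, -0.16 and -0.18 that were not called, so most of each relative difference was that of the pan-RGC genes. Against Control, the relative difference of Moderate IOP was -0.53 for Ebf1, at the median of all genes, with a log2 fold-change of -0.01, and -0.02 for Eomes and -0.10 for Ebf3 with overlapping groups. Pou4f3 and Tbr1 overlapped in every comparison.

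**Figure D4:**
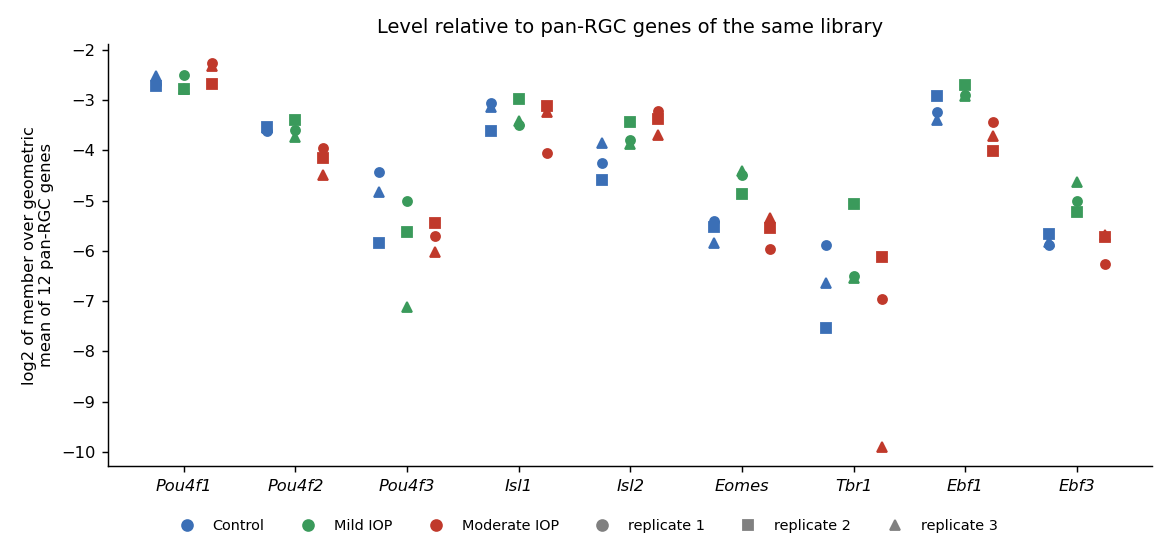
Log2 of each transcription factor over the geometric mean of 12 pan-RGC genes in the same library (vertical axis), in blue for Control, green for Mild IOP and red for Moderate IOP, with a symbol for each replicate. The Moderate IOP points of Isl2 lie above Control, those of Pou4f2 lie below both other groups, near the median shift of all genes on this scale, and the lowest point is Tbr1 in Moderate IOP replicate 3, at -9.90.

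Of the genes that work with the members, few were called. None of the 29 tested genes of 37 other transcription factors found in RGC types (such as Satb1, Foxp2, Irx and Tbx genes) was called in any comparison, with 1, 2 and 3 genes at an unadjusted p below 0.05 in Mild IOP against Control, Moderate IOP against Control and Moderate IOP against Mild IOP. Over all tested genes this share was 10.2% in Mild IOP against Control. It is not given for the other comparisons, so such counts are not read further. Klf6, an injury-responsive zinc-finger factor, was the most abundant of them, at 92.8 ± 10.3 in Control as against 72.1 ± 6.12 in Mild IOP and 95.9 ± 29.1 in Moderate IOP. Of 12 factors of RGC genesis, which act before or beside Pou4f2 in the embryo, 6 were tested and none was called (0, 1 and 0 genes at an unadjusted p below 0.05). Dlx1, Dlx2 and Neurog2 were at 0 in all libraries, and Pax6, which amacrine cells also express, was the highest at 438 ± 34.0, 400.2 ± 22.4 and 393 ± 8.65. Of 9 cofactors that bind LIM-domain proteins such as Isl1 and Isl2, 8 were tested and none was called (1, 0 and 2 genes at an unadjusted p below 0.05), with Ssbp4 the highest at 91.7 ± 8.74, 78.5 ± 8.80 and 106 ± 21.4.

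Genes that depend on Pou4f2 in the developing retina were in part higher in Moderate IOP, where Pou4f2 was not called. Of 6 such genes, none was called in Mild IOP against Control, and 1 had an unadjusted p below 0.05. In Moderate IOP against Control, 2 of 6 were called, both higher: Nefl, the light neurofilament, by 0.65 (FDR = 0.012), and Stmn2, a microtubule regulator of growing axons, by 0.64 (FDR = 0.064). Against Mild IOP these 2 genes were higher by 0.52 (FDR = 0.012) and 0.80 (FDR = 0.010), and Gap43, a growth cone protein, by 0.59 (FDR = 0.029). All 3 are also on the pan-RGC list. The other genes of the list, Ablim1, Shh and Rit2, were not called, and the median log2 fold-change of the list was -0.12, 0.26 and 0.32 in Mild IOP against Control, Moderate IOP against Control and Moderate IOP against Mild IOP.

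Genes that label RGC types linked with the members were described in the same way. Of 10 genes, 8 were tested and 2 were called. Cartpt, a neuropeptide precursor of direction-selective RGCs, averaged 408 ± 6.73 in Control as against 309.6 ± 66.6 in Mild IOP and 885 ± 37.2 in Moderate IOP. It was higher in Moderate IOP than in Control by 1.11 (FDR = 0.0058) and than in Mild IOP by 1.54 (FDR = 0.0016). Spp1, osteopontin, which marks large alpha RGCs, averaged 13.2 ± 2.92, 14.5 ± 2.15 and 28.8 ± 8.68, and was higher in Moderate IOP by 1.05 against Control (FDR = 0.068) and 0.91 against Mild IOP (FDR = 0.044). The list median was 0.0073, -0.072 and -0.063 in the 3 comparisons.

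Of the 12 pan-RGC genes, 4 were called in Moderate IOP against Control (Nefl, Stmn2, Sncg by 0.61 with an FDR of 0.071, and Uchl1 by 0.58 with an FDR of 0.040), all higher, and 9 in Moderate IOP against Mild IOP, all higher, the largest being Rbpms by 1.26 (FDR = 0.036). None was called in Mild IOP against Control, where 3 had an unadjusted p below 0.05. Markers of other retinal cells also differed between the pools. Of 11 tested amacrine genes, 2 were lower in Moderate IOP than in Control, the glycine transporter Slc6a9 with a log2 fold-change of -1.48 and Gad2 with -0.70 (FDR = 0.00062 and 0.059), and 4 were lower than in Mild IOP, and the 12 listed genes summed to between 1890.1 and 2002 in Control, between 1929 and 2131 in Mild IOP and between 1467 and 1665 in Moderate IOP, with Ptf1a at 0. Of 10 rod genes, 2 were lower in Mild IOP and 3 in Moderate IOP than in Control, and their sum lay between 546 and 655 in Control and at 439.6 or less in the IOP groups. Of 8 Muller glia genes, Rlbp1 and Apoe were higher in Moderate IOP than in Control and Glul, Apoe and Clu higher than in Mild IOP, with sums between 848 and 913 in Control and Mild IOP and between 960 and 1013 in Moderate IOP. Of 7 tested lens genes, 6 were lower in each IOP group than in Control. The part of these cells in the values of the members was not tested.

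The genes whose profile over the 9 libraries was most like that of a member were sought among 8180 genes with a mean of at least 5 scaled FPKM, by the root mean square difference of their centred log2 values. For Pou4f1 these were Banf1 (0.129), Dok5 (0.133) and Med30 (0.136), against a root mean square of 0.426 for Pou4f1 itself. For Isl2 they were Mycbp (0.208), Map1a and Zbtb25 (0.222 each), against 0.539 for Isl2. The nearest genes were Slc6a6 and Pcdh8 for Pou4f2, Them6, Ccdc94 and Slc27a3 for Pou4f3, Aga, Arxes1 and Lgi3 for Isl1, and Sytl2, Guf1 and Coch for Eomes. They were Kcna4, Stard10 and Wdr35 for Tbr1, Adck2, Spen and Sec24c for Ebf1, and 2310061I04Rik, Tmem161b and Aptx for Ebf3.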

How the data were processed

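RNA of immunopanned RGCs was sequenced as 9 libraries, 3 technical replicates for each of the Control, Mild IOP and Moderate IOP pools. cDNA was made by the SMART-seq v4 kit, which primes with oligo-dT, made into libraries with Nextera XT and sequenced as paired reads of 100 bases. The methods of the study name bowtie2 as the aligner to mm10, and the submitters' processing notes name FastQC, Trimmomatic, TopHat2, Cufflinks and Cuffdiff. From each library alone the authors estimated an FPKM for every gene locus with cufflinks, deposited along with its confidence interval and an estimation status. Cuffdiff was not rerun, since it starts from aligned reads.

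Loci sharing a symbol were added up, and the FPKM divided by median-of-ratios factors over the 9 libraries. The 13043 genes whose scaled FPKM averaged 0.5 or more, with no failed estimate, were fitted as log2(scaled FPKM + 1) with limma 3.58.1 (R 4.3.3) by group, with a variance trend. Benjamini-Hochberg adjustment was made over all tested genes. A gene was called at an FDR below 0.1. Family shares and levels relative to the pan-RGC genes were compared with exact two-sided permutation tests, for which 3 against 3 libraries cannot give a p below 0.1. Fragments behind an FPKM were derived from its interval as the square of 2 times FPKM over the difference between upper bound and FPKM, and cover counting error only. Depth was derived from genes that had 100 or more such fragments and a transcript of 2000 nt or longer. The remaining steps used scipy 1.17.1, pandas 2.3.3, numpy 2.4.6 and matplotlib 3.10.9 in Python 3.11.15. The fit was tested on simulated data.

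Groups came from the sample labels. The members, the gene lists and the tests were chosen with earlier results of these data known. Named are all 9 members, from each list at most 4 called genes per comparison and the most abundant gene, and for each member the 3 genes most like it. A few genes selected in this way are not reported here. Opn4, Jam2, the genes at 0, the uncalled genes listed after their counts and the sex-linked genes were named after their values were seen. Promoter sequences are from RefSeq, and the EBF string searched in them was shortened after a longer form had given no match in the members. Correlations of the deviations from the group means between libraries with the same replicate number were between -0.0051 and 0.044 over 9 pairs, and between -0.051 and 0.042 over 18 pairs with different numbers, so the numbers do not pair the libraries. Alternatives were tried for the scaling, pseudocount, filter, failed estimates, the groups in the fit, a replicate block, the pan-RGC summary and the leaving out of each library.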

Additional observations from a re-analysis of the deposited data

Results flagged for a closer look

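The change of Pou4f1 from Control was larger by 0.92 on the log2 scale in Moderate IOP than in Mild IOP, which is the direct difference between these pools (FDR = 0.017, limma), with all 3 Moderate IOP replicates above all 3 Mild IOP replicates. The change of Isl2 from Control was likewise larger by 0.90 in Moderate IOP than in Mild IOP (FDR = 0.033, limma), again with 3 of 3 replicates above. Relative to the pan-RGC genes, Moderate IOP and Mild IOP overlapped for both genes. The relative differences were 0.26 for Pou4f1 and 0.28 for Isl2 (exact permutation p = 0.2 in each). With the median of the pan-RGC list in place of its geometric mean, they were 0.034 and 0.056.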

How the results depend on the processing

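The counts of called members were 0, 1 and 2 in Mild IOP against Control, Moderate IOP against Control and Moderate IOP against Mild IOP, and stayed at these values without scaling, with upper-quartile scaling, a pseudocount of 0.1, no filter, failed estimates kept, the 2 groups alone and a replicate block, so the block changed no call of a member. With a filter of at least 5 mean scaled FPKM, which leaves 5 members tested, 2 were called in Moderate IOP against Control (Pou4f1 and Isl2). Leaving out each library in turn gave between 0 and 1 called members in Moderate IOP against Control, between 2 and 3 in Moderate IOP against Mild IOP and 0 in Mild IOP against Control. No direction of a called member was reversed, with Isl2 between 1.07 and 1.35 and FDR between 0.026 and 0.114 against Control, and Pou4f1 between 0.79 and 1.06 and FDR between 0.023 and 0.072 against Mild IOP. With the median of the pan-RGC list in place of its geometric mean, the relative difference moved to 0.0041 and 0.034 for Pou4f1 in Moderate IOP against Control and against Mild IOP, to -0.84 and -0.85 for Pou4f2 and to -1.10 for Ebf1 against Mild IOP. For Isl2 it moved to 0.60 against Control and to 0.056 against Mild IOP.

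The number of all genes called in Mild IOP against Control, 52, was 28 with upper-quartile scaling, 24 with no filter, 85 with the filter at 5, 25 with the replicate block and 11 with the 2 groups alone, and between 15 and 183 with a library left out (183 without Mild IOP replicate 3). In Moderate IOP against Control, 240 became 135 with the block and 134 with the 2 groups alone, and between 61 (without Control replicate 1) and 287 with a library left out. In Moderate IOP against Mild IOP, 1324 became between 519 (without Mild IOP replicate 2) and 1399. A single gene locus held 20.5% of the summed FPKM in Mild IOP replicate 2 and 9.14% in Moderate IOP replicate 3. In the other libraries the highest such share was 3.59%. The causes of the changed counts were not tested.

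The libraries are technical replicates of 3 pools, so none of these values covers animals. Low members rest on few fragments, down to 4.0 for Pou4f3 and Tbr1, and the replicates of Tbr1 spread beyond counting error in all 3 groups.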
